A study of Mus musculus with 2 samples.

Results

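The Fc receptors for immunoglobulin G (IgG) and their signalling subunit were described in brain mononuclear cells of CD47 KO and WT mice. The group holds 7 genes of the 18193 with a named probe set: the activating receptors *Fcgr1*, *Fcgr3* and *Fcgr4*, the inhibitory receptor *Fcgr2b*, the FcR gamma chain *Fcer1g*, the Fc receptor-like gene *Fcrls* and the neonatal Fc receptor *Fcgrt*. They were chosen by name and function and not by their values, though with earlier results of these data known. Every probe set that the array annotation gives to exactly 1 of them was taken, 12 in all. Whole brains were digested and spun through Percoll, and the cells taken from the boundary of the layers hold microglia together with other cells of their density. CD47 KO mice lack CD47, the membrane ligand of the microglial receptor SIRPα, in all cells, and the study used them to follow how loss of this signal alters microglia. The CD47 KO pool held RNA of 6 mice (12 to 16 wks of age) and the WT pool RNA of 7 mice (10 to 15 wks of age). Both pools were labelled as male. From each, 20 ng of total RNA was amplified and hybridised to 1 GeneChip Mouse Genome array, so that no difference below has a replicate or a p-value.

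Fc receptors bind the constant part of antibodies and let a cell respond to what the antibody has bound. Activating Fcγ receptors carry no signalling motif of their own and rely on the FcR gamma chain, whose ITAM, a tyrosine motif, is phosphorylated by Src family kinases and then docks the kinase SYK. The inhibitory receptor FcγRIIB carries an ITIM in its own tail, which recruits the inositol phosphatase SHIP1 and damps the activating signal. Macrophages and microglia carry both kinds and use them to take up antibody-coated material. FcRn, the product of *Fcgrt*, belongs to another family: it resembles an MHC class I heavy chain, pairs with β2-microglobulin and salvages IgG and albumin from degradation.

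The promoter letters of the signalling receptors are given first, since the receptors that need the gamma chain shared a short stretch close to their start sites that reads as purines on the opposite strand. The sequences are from RefSeq (GRCm38.p6), 5′ to 3′ on the strand of the gene, and hold the 100 bases before the annotated start. Capitals mark GAGGAAG or its complement CTTCCTC, a sequence of the kind bound by the myeloid transcription factor PU.1. It was searched on both strands of the 250 bases before each start, and it was picked after the sequences had been seen.
Fcgr1, chr3:96293970-96294069, minus strand: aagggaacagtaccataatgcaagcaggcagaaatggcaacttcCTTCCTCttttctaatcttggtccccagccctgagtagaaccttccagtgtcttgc
Fcgr3, chr1:171059395-171059494, minus strand: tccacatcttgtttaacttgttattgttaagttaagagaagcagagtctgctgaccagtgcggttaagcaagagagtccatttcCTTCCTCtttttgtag
Fcgr4, chr1:171018826-171018925, plus strand: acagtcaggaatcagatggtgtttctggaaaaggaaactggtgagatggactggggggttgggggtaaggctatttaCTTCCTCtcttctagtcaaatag
Fcgr2b, chr1:170976072-170976171, minus strand: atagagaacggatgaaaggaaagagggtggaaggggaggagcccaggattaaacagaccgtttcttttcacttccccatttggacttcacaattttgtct
Fcer1g, chr1:171234350-171234449, minus strand: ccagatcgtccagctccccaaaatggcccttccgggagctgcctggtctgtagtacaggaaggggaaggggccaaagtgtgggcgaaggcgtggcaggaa
All 7 genes matched a RefSeq promoter. The motif began 56 bases before the start of *Fcgr1*, 16 before the start of *Fcgr3* shown here (7 before the other annotated start of that gene) and 23 before the start of *Fcgr4*. *Fcrls* held it 144 bases before its start, outside the stretch of 100 bases. *Fcgr2b*, *Fcer1g* and *Fcgrt* had no match in these windows. Only this exact string was searched, so these genes may still hold related sequences. The split between the genes depends on the string picked. *Fcgr1*, on chromosome 3, and *Fcgr3*, on chromosome 1, shared a run of 14 letters around it, ttcCTTCCTCtttt. In all, 4 of the 7 genes held the motif, beside 10.4% of 27025 promoters (2807). The string was picked after sequences of these genes had been seen, which favours matches among them. The comparison with all promoters therefore cannot show whether the motif is more common in these genes. A match is a description of these letters and not evidence that a factor binds there.

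The knockout was visible on the arrays. *Cd47* had a signal of 1688 in CD47 KO cells and 5816 in WT cells on its brightest probe set, a Log2 ratio (KO/WT) of -1.79, and the 5 expressed *Cd47* probe sets lay between -1.86 and -1.45. Where these probes lie relative to the disrupted exons was not tested, so the remaining signal says nothing about protein. Microglial markers were bright in both pools, as *P2ry12* shows with 7608 in CD47 KO cells and 6873 in WT cells. The preparation also held transcripts of blood, vessel, choroid plexus and neural cells. *Xist*, the RNA of X inactivation, had a signal of 6530 in CD47 KO cells and 7070 in WT cells although the labels give only males. Of all expressed genes, 9.01% (1054 of 11695) were past 2-fold. Expressed here means that a probe set was at or above the median signal of an array (146 in CD47 KO, 161 in WT) on at least 1 of the 2.

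All 7 genes were expressed, and none of them differed by 2-fold or more between CD47 KO and WT cells. Of the 12 probe sets, 11 were expressed, all of these on both arrays. In CD47 KO cells 8 of the 11 were higher and 3 were lower (7 and 4 under quantile or loess normalization, where *Fcer1g* turned). These are not 11 separate readings, since 4 were of *Fcgr2b* and 2 of *Fcgr1*. Of the 11, 0 were past 2-fold, beside 9.44% of all expressed probe sets. A single probe set, of *Fcgr2b*, was past 1.5-fold. Counted by gene on the brightest probe set, 0 of the 7 were, beside 23.8% of all expressed genes. The share past 1.5-fold was not counted for bright probe sets alone. Bright probe sets seldom reached 2-fold at all. In the brightest 25% of expressed probe sets, which begins at a mean signal of 1156 and holds 9 of the 11, the share was 0.888% (47 of 5292). With each gene counted once, on the probe set of highest mean signal, 5 genes had a positive and 2 a negative Log2 ratio (4 and 3 under quantile or loess normalization). Of all expressed genes, 50.3% had a positive one, and the median ratio of the brightest 25% of genes was 0.05.

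**Figure D1:**
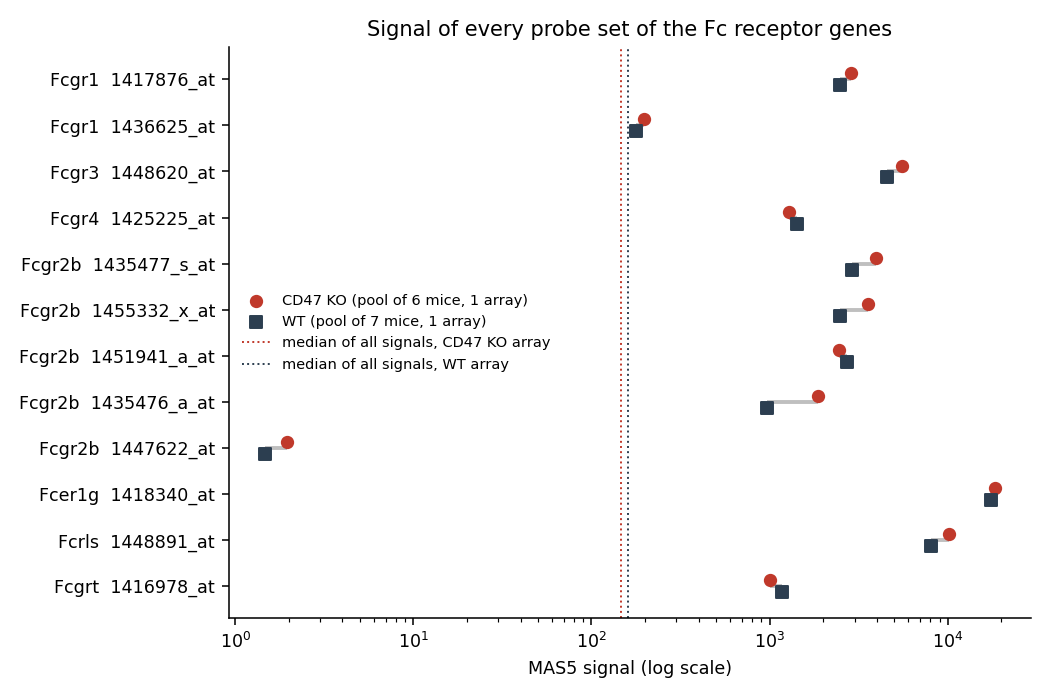
MAS5 signal of the 12 probe sets of the Fc receptor genes on a log axis, with CD47 KO as red circles and WT as dark squares; dotted lines mark the median signal of each array (146 in CD47 KO, 161 in WT). The 2 points of a probe set lie close together except for *Fcgr2b* 1435476_a_at (1878 in CD47 KO, 963 in WT), and only *Fcgr2b* 1447622_at lies under the medians.

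With 1 array per genotype, the main measure of error within the data is how far probe sets of one gene disagree. The 9 hybridization controls gave another, with Log2 ratios between -0.01 and 0.15, beside a median of 0.20 over the 7 genes. In the brightest 25% the SD between the 2 brightest probe sets of a gene was 0.194 in Log2 ratio (1125 genes), and in the dimmest 25% it was 0.841 (707 genes). This SD holds probe effects and transcript forms but no variation between animals or amplifications. *Fcgrt* lies in the 25% next to the brightest (SD 0.386), and the other genes were read from the brightest 25%. On this scale 3 of the 7 genes lay within 1 SD of no difference, as did 62.5% of all expressed genes (7307 of 11695).

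Among the activating receptors, *Fcgr3* had the highest Log2 ratio. *Fcgr3* encodes FcγRIII (CD16), a receptor of low affinity that binds IgG in immune complexes. Its single probe set gave 5563 in CD47 KO cells and 4536 in WT cells, 1.23-fold higher in CD47 KO (Log2 ratio 0.29). This is 1.52 times the SD between probe sets, and 14.1% of the probe sets of like brightness had a ratio at least as high. In a bulk preparation, a difference in the number of cells of a type and one in RNA per cell cannot be told apart.

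*Fcgr1* encodes FcγRI (CD64), the high-affinity receptor that can hold single IgG molecules. Its brighter probe set gave 2859 in CD47 KO cells and 2486 in WT cells, a Log2 ratio of 0.20, or 1.04 SD. The dimmer one gave 197 in CD47 KO cells and 178 in WT cells, a Log2 ratio of 0.15. The 2 probe sets of *Fcgr1* thus had the same sign and differed by little, although the dimmer one is among the signals where the SD is 0.841.

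*Fcgr4* encodes FcγRIV, a mouse receptor for IgG2 subclasses found on monocytes, macrophages and neutrophils. It was the only activating receptor on the other side of 0, with 1293 in CD47 KO cells and 1434 in WT cells (Log2 ratio -0.15, or -0.77 SD). Of the probe sets of like brightness, 79.2% had a ratio at least as high. The Log2 ratios of *Fcgr3* and *Fcgr4* differed by 0.44, and neither sign turned under median centring, quantile or loess normalization. The other alternatives tried could not turn the sign of a gene read by a single probe set. *Fcgr4* lies between *Fcgr2b* and *Fcgr3* on chromosome 1.

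*Fcgr2b*, the inhibitory receptor (CD32), had the highest Log2 ratio of the 7 genes on its brightest probe set and also the widest disagreement between probe sets. Probe set 1435477_s_at gave 3977 in CD47 KO cells and 2913 in WT cells, 1.37-fold higher in CD47 KO (Log2 ratio 0.45, or 2.32 SD). Probe set 1455332_x_at gave 3578 in CD47 KO cells and 2497 in WT cells (Log2 ratio 0.52). Both were higher in CD47 KO cells than in WT cells, and 5.56% and 3.80% of the probe sets of like brightness had ratios at least as high.

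The dimmest of the expressed *Fcgr2b* probe sets showed the widest gap. Probe set 1435476_a_at gave 1878 in CD47 KO cells and 963 in WT cells, 1.95-fold higher in CD47 KO and just short of 2-fold (Log2 ratio 0.96). Only 0.246% of the probe sets of like brightness had a ratio at least as high. Probe set 1451941_a_at went the other way, with 2455 in CD47 KO cells and 2736 in WT cells (Log2 ratio -0.16). The fifth, 1447622_at, had a signal of 1.95 in CD47 KO cells and 1.47 in WT cells and was not expressed.

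Over the 4 expressed *Fcgr2b* probe sets the Log2 ratio was 0.44 ± 0.46 (mean ± SD over probe sets, not over animals), with a range of 1.12. Of 88 genes with 4 probe sets in the brightest 25%, 2 had a range this wide, *Fcgr2b* included, and the median range was 0.30. The array annotation lists 1435477_s_at, 1455332_x_at and 1435476_a_at, the higher ones, with the same source sequence, and 1451941_a_at with another. The 4 are thus not separate readings of the gene. The suffixes _s_at and _x_at are given by the maker to probe sets that may bind transcripts of more than 1 gene, and _a_at to those that match several transcripts of 1 gene. Left to the probe sets without _s_at and _x_at, the brightest for *Fcgr2b* was 1451941_a_at, slightly lower in CD47 KO cells (Log2 ratio -0.16). The other expressed one without these suffixes, 1435476_a_at, had 0.96. Leaving out the suffixes therefore did not settle the sign of the gene. In mice the extracellular parts of FcγRIIB and FcγRIII are nearly identical in sequence, so the *Fcgr2b* and *Fcgr3* values are uncertain where a probe falls in the shared stretch. Where the probes lie was not tested.

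**Figure D2:**
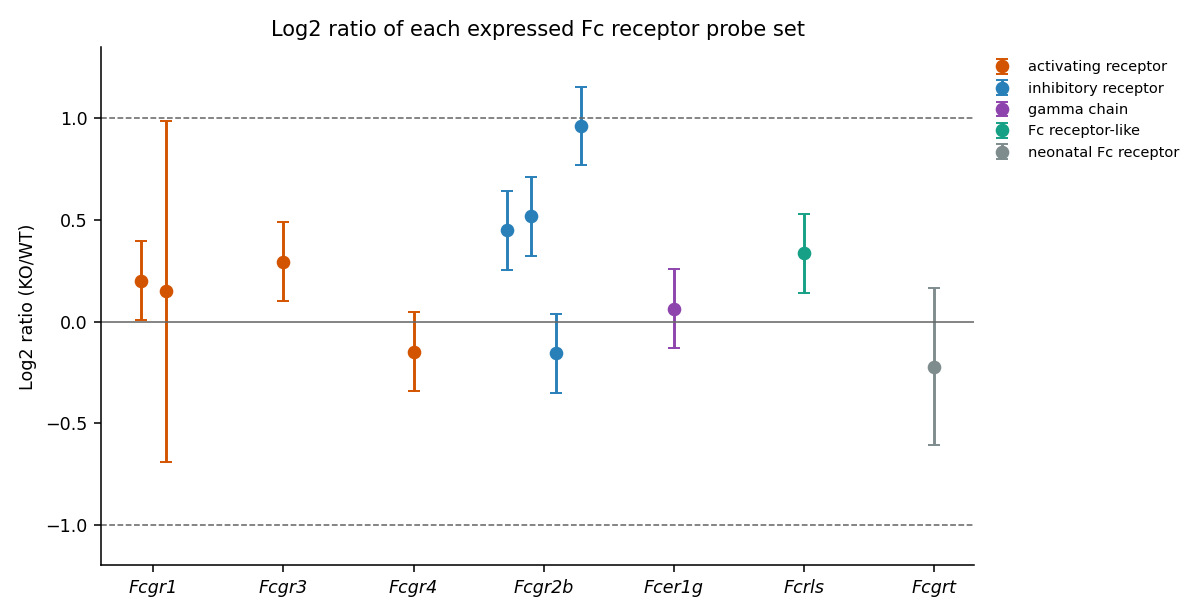
Log2 ratio (KO/WT) of the 11 expressed probe sets, grouped by gene and coloured by role. Bars are ± 1 SD between probe sets of one gene at the same brightness, not replicate error, and dashed lines mark 2-fold; *Fcgr2b* spans -0.16 to 0.96 while the other genes stay between -0.22 and 0.34.

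The FcR gamma chain had nearly the same signal in both pools. *Fcer1g* encodes the ITAM subunit that *Fcgr1*, *Fcgr3* and *Fcgr4* products need for surface expression and signalling, and that several lectin-like and Ig-like receptors share. Its probe set was very bright and gave 18341 in CD47 KO cells and 17542 in WT cells, 1.05-fold (Log2 ratio 0.06, or 0.33 SD), and the sign of this ratio turned under quantile (-0.03) and loess (-0.02) normalization. No direction can be given for it.

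*Fcrls* encodes an Fc receptor-like protein that is typical of mouse microglia and has no established IgG-binding role. It gave 10154 in CD47 KO cells and 8041 in WT cells, 1.26-fold higher in CD47 KO (Log2 ratio 0.34, or 1.74 SD). Of the probe sets of like brightness, 11.0% had a ratio at least as high. *Fcrls* had the highest ratio among the genes read by a single probe set, followed by *Fcgr3*, and these ratios differed by less than the SD between probe sets.

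*Fcgrt* had the lowest ratio of the 7 genes. It gave 1007 in CD47 KO cells and 1175 in WT cells (Log2 ratio -0.22), which is -0.58 SD at its brightness. Its partner *B2m*, the light chain that FcRn shares with MHC class I, was on the other side of 0, with 21602 in CD47 KO cells and 18216 in WT cells (Log2 ratio 0.25, and 0.18 on its other probe set). The ratios of the 2 chains of FcRn thus had opposite signs.

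In order of Log2 ratio, the genes ran *Fcgr2b*, *Fcrls*, *Fcgr3*, *Fcgr1*, *Fcer1g*, *Fcgr4* and *Fcgrt*. Neighbours in this order differed by 0.04 to 0.21, less than the SD of such a difference between bright probe sets (0.274). The median over the 7 was 0.20, beside 0.00 for all expressed genes and 0.05 for the brightest 25% of genes. Without _s_at and _x_at probe sets, when *Fcgr2b* was read from 1451941_a_at alone (-0.16), the median over the 7 was 0.064. The activating receptors had a mean Log2 ratio of 0.12, which was 0.33 below that of *Fcgr2b* on its brightest probe set. This balance of activating over inhibitory receptors was thus -0.33, and it ran from -0.85 to 0.27 with the choice of the *Fcgr2b* probe set, so that its sign was not settled.

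**Figure D3:**
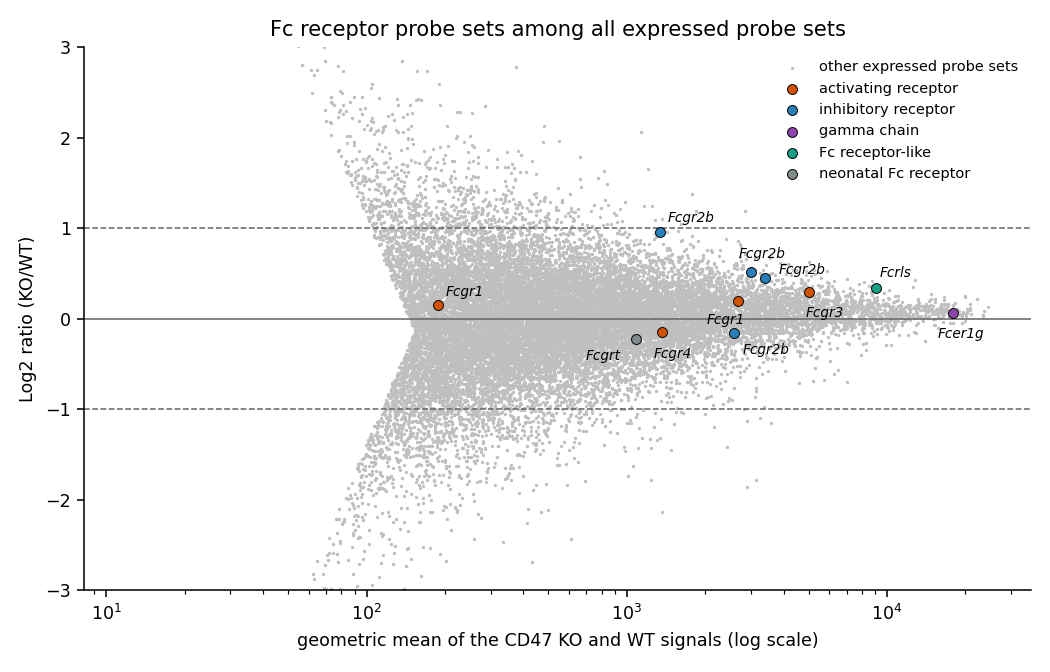
Log2 ratio (KO/WT) of all expressed probe sets, plotted against the geometric mean of the CD47 KO and WT signals on a log axis, with the Fc receptor probe sets coloured by role and the rest in grey. The cloud narrows as signals get brighter, dashed lines mark 2-fold, and 74 grey points beyond ±3 are not drawn; *Fcgr2b* 1435476_a_at sits just under the upper dashed line, and *Fcer1g* sits at the bright end near 0.

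Markers of the cell types in the preparation also differed between the pools. All 14 expressed microglial markers were higher in CD47 KO cells on the brightest probe set, except that *Sall1* and *Csf1r* turned under quantile and loess normalization. *Sall1* was also lower, at -0.28, as the mean over its 2 probe sets. The median Log2 ratio of the list was 0.18, and its signals, summed here and below over all genes of a list with a named probe set, came to 112231 in CD47 KO and 97222 in WT. The Fc receptor genes had a median of 0.20. Without _s_at and _x_at probe sets the medians were 0.064 for the Fc receptor genes and 0.18 for the microglial markers. Of the markers, *Cx3cr1*, the fractalkine receptor, had the highest ratio at 0.66 (3599 in CD47 KO, 2280 in WT; 0.21 on its other probe set), and *Csf1r*, the receptor for CSF1 and IL-34, was among the brightest with 0.07 (15949 in CD47 KO, 15185 in WT).

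The genes of CD11c-positive activated microglia were further apart. Of 16 expressed, 15 were higher in CD47 KO cells, 8 of them past 2-fold, with a median of 1.04 and summed signals of 34822 in CD47 KO and 24433 in WT. The paper had already reported *Itgax*, *Cst7*, *Lpl*, *Igf1*, *Ch25h*, *Mmp12* and *Apoc1* as increased more than 2-fold on these arrays. This count and median are therefore not separate support for such a shift. *Itgax*, which encodes CD11c, gave 251 in CD47 KO cells and 76.6 in WT cells (Log2 ratio 1.71). *Cst7*, which encodes the protease inhibitor cystatin F, gave 2136 in CD47 KO cells and 678 in WT cells (Log2 ratio 1.65). *Trem2*, a lipid-sensing receptor of microglia, gave 6537 in CD47 KO cells and 4782 in WT cells (Log2 ratio 0.45), a ratio like that of the brightest *Fcgr2b* probe set. On the brightest probe sets, none of the Fc receptor genes reached the median of this list. Brightness was not matched in this comparison. Of the list members past 2-fold, *Itgax*, *Gpnmb*, *Ch25h* and *Mmp12* were under the array median in WT cells, while *Cst7* was in the brightest 25%. In the dimmest 25% of probe sets 23.9% were past 2-fold, beside 0.888% in the brightest 25%. Among the brightest of the list, *Fabp5* had a Log2 ratio of 0.31 and *Cd68* one of 0.49.

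Markers of other myeloid cells that carry Fcγ receptors were mostly lower in CD47 KO cells. Those of border-associated macrophages had 7 of 7 expressed genes lower, 2 past 2-fold (median -0.47, summed signals 3384 in CD47 KO and 4749 in WT). Both of these, *Mrc1* (228 in CD47 KO, 522 in WT) and *Cbr2* (188 in CD47 KO, 638 in WT), mark perivascular and meningeal macrophages. Monocyte markers were lower in 7 of 8 (median -0.42, 13668 in CD47 KO and 17197 in WT), and neutrophil markers in 7 of 9, or 8 of 9 under loess normalization (median -0.20, 74772 in CD47 KO and 77493 in WT). *Fcgr4*, which monocytes and neutrophils carry, shared the sign of these lists. The Log2 ratios of *Fcgr1* (0.20), *Fcgr3* (0.29) and the brightest *Fcgr2b* probe set (0.45, but -0.16 on another) did not. The part of these cells in any of these values was not tested.

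Other cells with Fc receptors were less well covered. B cell markers, whose cells carry FcγRIIB as their only Fcγ receptor, were lower in 4 of 5 expressed genes (median -0.16, summed signals 2759 in CD47 KO and 3430 in WT), and *Ms4a1*, which encodes CD20, was past 2-fold (117 in CD47 KO, 461 in WT). Markers of NK cells, which carry FcγRIII, were higher in 4 of 5 (median 0.15, 6642 in CD47 KO and 6006 in WT). Endothelial markers, from cells that use FcRn, were lower in 8 of 10 (median -0.34, 15228 in CD47 KO and 17424 in WT). Choroid plexus markers were lower in 7 of 9, or 8 of 9 under quantile or loess normalization (median -0.39, 33053 in CD47 KO and 35794 in WT). *Fcgrt* shared the sign of the last 2 lists, and their part in its value was not tested.

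**Figure D4:**
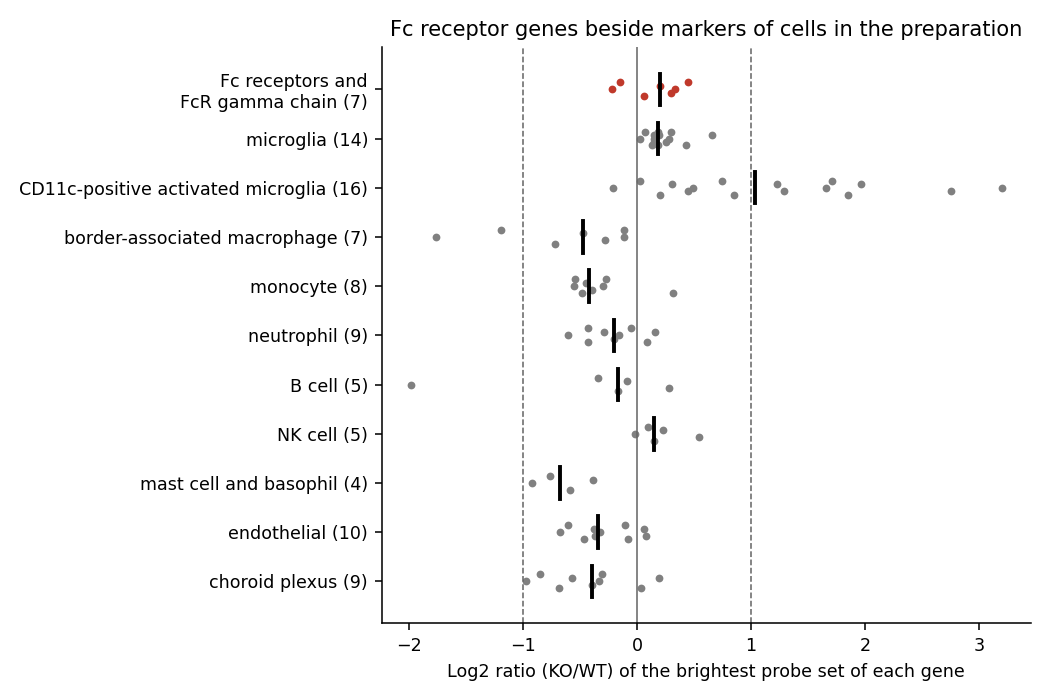
Log2 ratio (KO/WT) of the brightest probe set of each expressed gene, 1 point per gene, for the Fc receptor genes (red) and for marker lists of cells that may contribute to their signal; the number of genes is in brackets, black bars are medians, and dashed lines mark 2-fold. The Fc receptor genes (median 0.20, or 0.064 without _s_at and _x_at probe sets) overlap the microglial markers (0.18), with the CD11c-positive activated microglia list to their right (1.04) and border-associated macrophage (-0.47) and monocyte (-0.42) markers to their left. Several genes of the CD11c-positive list were already reported as increased by the paper from these arrays.

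Genes that relay the activating signal gave no common direction. Of 31 listed, 29 were expressed, and CD47 KO cells had 16 of these higher and 13 lower, with a median of 0.02. Under quantile or loess normalization 14 were higher and 15 lower, and as means over probe sets 18 were higher and 11 lower. *Fgr*, a Src family kinase of myeloid cells, was the only one past 2-fold, with 206 in CD47 KO cells and 425 in WT cells (Log2 ratio -1.04), and it was within 2-fold under quantile normalization. *Btk*, a Tec family kinase, had the highest ratio at 0.93 (316 in CD47 KO, 165 in WT) and was past 2-fold under quantile and loess normalization, followed by *Pik3cb*, a catalytic subunit of PI3 kinase, at 0.79 (301 in CD47 KO, 174 in WT). These 3 are dim, in the range of signals where probe sets of one gene often disagree.

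The brightest genes of the activating pathway were nearly equal in both pools. *Tyrobp*, which encodes DAP12, an ITAM adapter akin to the gamma chain, gave 17617 in CD47 KO cells and 16223 in WT cells (Log2 ratio 0.12). *Cdc42*, a GTPase that drives actin assembly at the phagocytic cup, gave 15560 in CD47 KO cells and 14998 in WT cells (Log2 ratio 0.05, with the other sign under quantile and loess normalization). *Syk*, the kinase that binds the phosphorylated gamma chain, gave 315 in CD47 KO cells and 390 in WT cells on its brightest probe set (Log2 ratio -0.31), and its 4 probe sets lay between -1.02 and -0.31. The adapter *Tyrobp* and the kinase *Syk* thus had opposite signs, and the gamma chain had no settled one.

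Of 11 listed genes of the inhibitory pathway, 9 were expressed, and CD47 KO cells had 2 of these higher and 7 lower on the brightest probe set, 0 past 2-fold, with a median of -0.12. As means over the probe sets of each gene, 5 were higher and 4 lower, with a median of 0.07, so the list had no settled direction. *Inpp5d*, which encodes SHIP1, the phosphatase that FcγRIIB recruits, gave 984 in CD47 KO cells and 743 in WT cells (Log2 ratio 0.40), while its other probe set had a ratio of -0.22. *Dok3*, an adapter that binds SHIP1, gave 292 in CD47 KO cells and 175 in WT cells (Log2 ratio 0.73). *Csk*, the kinase that holds Src family kinases inactive, gave 412 in CD47 KO cells and 559 in WT cells (Log2 ratio -0.44). *Cbl*, a ubiquitin ligase, and *Pag1*, which anchors CSK at the membrane, were the brightest of the list, at -0.12 and -0.04.

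Receptors related to the 7 genes were mostly dim in these cells. Of 14 other Fc receptors and Fc receptor-like genes, 11 had a named probe set and 5 were expressed, of which 3 had a positive and 2 a negative Log2 ratio (median 0.21, 0 past 2-fold). *Fcer1a*, the IgE-binding chain that also pairs with the gamma chain, gave 345 in CD47 KO cells and 655 in WT cells (Log2 ratio -0.92). *Fcer1a* is itself 1 of the 4 expressed markers of mast cells and basophils, which were all lower in CD47 KO cells (median -0.68, summed signals 1956 in CD47 KO and 3055 in WT). Without it, 3 of 3 were lower (median -0.59, summed signals 1611 in CD47 KO and 2401 in WT). The basophil protease gene *Mcpt8* was the brightest of them, with 830 in CD47 KO cells and 1411 in WT cells, while *Ms4a2*, the beta chain of the same receptor, was below the median on both arrays, and the part of these cells in the *Fcer1a* value was not tested.

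Other relatives act inside cells. *Fcrla*, a B cell Fc receptor-like protein that stays in the endoplasmic reticulum, gave 357 in CD47 KO cells and 634 in WT cells (Log2 ratio -0.83, and -0.24 on its other expressed probe set). *Trim21*, a cytosolic receptor for antibody that enters cells with pathogens, gave 693 in CD47 KO cells and 385 in WT cells (Log2 ratio 0.85), but its other probe set had a ratio of 0.00.

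Of 14 receptors that pair with the gamma chain outside the Fc receptor family, 7 had a named probe set and 3 were expressed, of which 2 had a positive and 1 a negative Log2 ratio (1 of each sign without _s_at and _x_at probe sets, where *Clec4d* drops out). *Cd300c2*, an activating receptor of myeloid cells, gave 4644 in CD47 KO cells and 3815 in WT cells (Log2 ratio 0.28), much like *Fcgr3*. *Clec4d*, a lectin for mycobacterial and fungal glycolipids, gave 1569 in CD47 KO cells and 1192 in WT cells (Log2 ratio 0.40). *Clec4e*, its relative Mincle, was dim, with 113 in CD47 KO cells and 190 in WT cells (Log2 ratio -0.75).

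**Figure D5:**
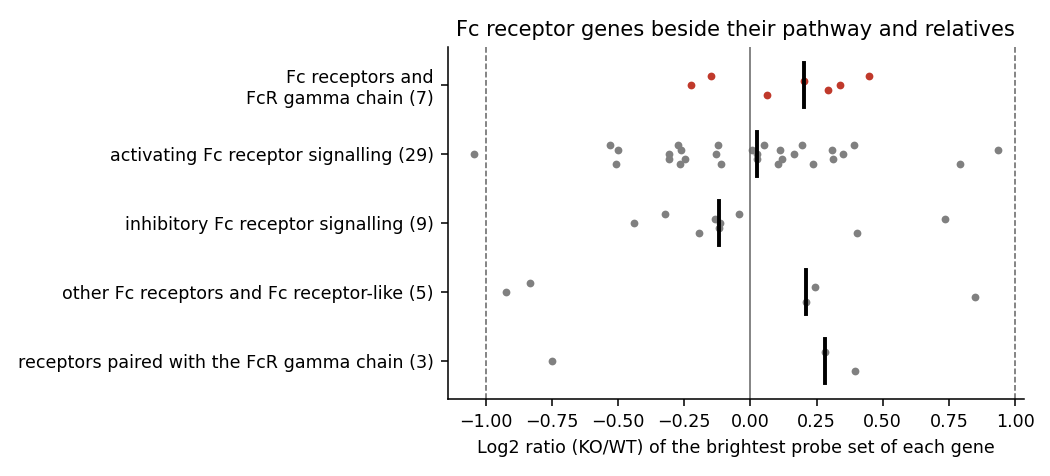
Log2 ratio (KO/WT) of the brightest probe set of each expressed gene for the Fc receptor genes (red), the genes of their activating and inhibitory signalling, other Fc receptors and receptors that pair with the FcR gamma chain; the number of genes is in brackets, black bars are medians and dashed lines mark 2-fold. On the brightest probe sets drawn here, 16 activating signalling genes were higher and 13 lower, as were 2 and 7 of the inhibitory ones, which as means over probe sets split into 5 higher and 4 lower.

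Of 12 listed immunoglobulin chain genes, 4 had a named probe set. These were all expressed and all lower in CD47 KO cells (median -0.25), but only *Ighg3* encodes a chain of IgG, the ligand of the Fcγ receptors. *Igha*, the heavy chain of IgA, and *Jchain*, which joins IgA and IgM into polymers, were bright and nearly equal, with Log2 ratios of -0.02 and -0.14. The brightest probe set of *Ighm*, the IgM heavy chain, had -0.36, and its expressed probe sets ran from -3.34 to 0.35. *Ighg3*, the only IgG heavy chain with a named probe set here, was past 2-fold, with 34 in CD47 KO cells and 186 in WT cells (Log2 ratio -2.45), from a probe set under the median of its array in CD47 KO cells.

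The genes next to the receptors had no common direction. *Fcgr2b*, *Fcgr4*, *Fcgr3* and *Fcer1g* lie in this order on mouse chromosome 1, with 7 other genes between the outermost. Of these 7, 4 were expressed. In CD47 KO cells 2 of them were higher and 2 lower, 0 past 2-fold, with a median of -0.02. They ranged from -0.21 for *Sdhc*, a subunit of succinate dehydrogenase, to 0.18 for *Tomm40l*, a mitochondrial import gene. Beside *Fcrls* on chromosome 3, *Cd1d1* had a Log2 ratio of -0.24 and *Fcrl1* one of 0.21. Beside *Fcgrt* on chromosome 7, *Nosip* had -0.21, *Rcn3* -0.12 and *Rpl13a* 0.11.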

How the data were processed

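The deposited values are MAS5 signals, linear intensities that the authors computed with the Expression Console software. The software version is not given in these sources. The 2 arrays behave as scaled to a common level, since the mean after trimming 2% at each end was 500.002 on both. The 9 hybridization controls had Log2 ratios between -0.01 and 0.15. Of 45101 probe sets, 64 were controls and left out of counts, 34945 carry exactly 1 gene symbol in the platform annotation, 932 several and 9160 none here. Only the first kind was used by gene, and 34741 of these matched RefSeq (GRCm38.p6), which also gave gene order and promoters.

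Log2 ratios (KO/WT) were computed on the deposited signals without an offset. The brightest probe set by mean signal stands for a gene, and 2-fold was the threshold. Expressed named probe sets were split by mean signal into 4 equal groups, and the SD between probe sets is the root mean square difference of the 2 brightest of a gene within a group, divided by the square root of 2. With 1 array per genotype no test was made, and this number limits the precision. The 7 genes and all gene lists were chosen with earlier results of these data known. Named were all 7 genes, list members past 2-fold, the 3 with the largest absolute ratio and the 2 brightest of a list, and expressed neighbours, of which only a part is printed. *P2ry12*, *Syk* and *Ms4a2* were chosen after their values were seen. The count of the 7 genes past 2-fold was recomputed under 11 alternatives, and their Log2 ratios, median and activating minus inhibitory difference under 10 of these. The gene lists were recomputed under 3 scalings and, chosen after seeing the data, with 2 other choices of probe set, and the mast cell list without *Fcer1a*. Neighbours and promoters were not recomputed. The calculation was tested on simulated data. Python 3.11.15 was used with numpy 2.4.6, pandas 2.3.3, statsmodels 0.14.6 and scipy 1.17.1.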

Additional observations from a re-analysis of the deposited data

How the results depend on the processing

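The 11 alternatives for the 7 genes were no signal threshold, a threshold at the 75th percentile or at the median of both arrays, median centring, quantile or loess normalization (fraction 0.4), an offset or a floor at the 25th percentile, the mean over probe sets, no _s_at and _x_at probe sets, and a 1.5-fold threshold. The count of Fc receptor genes past the threshold was 0 in all 11. The other signal thresholds and the floor left the Log2 ratios of all 7 genes as they were. The choice of probe set moved only *Fcgr1* and *Fcgr2b*. Many recomputed values were thus bound to be the same. Of 70 recomputed Log2 ratios of the 7 genes, 3 had another sign: *Fcer1g* under quantile (-0.03) and loess (-0.02), and *Fcgr2b* without _s_at and _x_at probe sets (-0.16, from 1451941_a_at). Without those probe sets the median of the 7 genes was 0.064 and the activating minus inhibitory difference 0.27. Otherwise *Fcgr1* stayed between 0.16 and 0.20, *Fcgr3* between 0.23 and 0.29, *Fcgr4* between -0.17 and -0.14, *Fcrls* between 0.26 and 0.34 and *Fcgrt* between -0.23 and -0.21. The background moved more: 9.01% of all genes were past 2-fold as reported, 20.4% with no signal threshold, 6.11% with the offset, 3.69% with the median on both arrays, 3.52% with the 75th percentile, and 23.8% past 1.5-fold. The split of higher and lower genes was 416 and 638 as reported, 510 and 532 after quantile and 488 and 553 after loess normalization. No paired analysis was possible because each genotype had 1 array. One array of one pool per genotype gives no error between animals, and the pools also differed in age range and number of mice. *Xist* and the Y-linked *Eif2s3y* and *Kdm5d* were expressed on both arrays although the labels give only males. Whether the pools also differed in sex was not tested.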

Other observations

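Markers of neural cells and T cells were measured in the same way. Markers of astrocytes were higher in CD47 KO cells in 7 of 7 expressed genes, or 6 of 7 as means over probe sets, with a median Log2 ratio of 0.31 and summed signals of 33428 in CD47 KO and 26614 in WT. *Atp1b2*, a sodium pump subunit, had the highest ratio at 0.60 (4944 in CD47 KO, 3251 in WT), and the glutamate transporter gene *Slc1a2* had 0.28 (10762 in CD47 KO, 8851 in WT). The astrocyte list thus had a higher median than the microglial list and the Fc receptor genes. Neuron markers were higher in 5 of 8, or 4 of 8 under each scaling alternative (median 0.04, 39160 in CD47 KO and 38259 in WT), and *Snap25*, a synaptic vesicle fusion gene, was level (17607 in CD47 KO, 17563 in WT).

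Oligodendrocyte markers were higher in 4 of 7, or 3 of 7 under quantile or loess normalization (median 0.02, or -0.44 without _s_at and _x_at probe sets; 15851 in CD47 KO and 15082 in WT), and *Olig2*, the transcription factor of that lineage, was past 2-fold as deposited but not under quantile or loess normalization (86.7 in CD47 KO, 175 in WT). T cell markers split: *Cd3d* (1363 in CD47 KO, 935 in WT) and *Cd3g* (1138 in CD47 KO, 668 in WT) were higher, while *Cd3e* (64.3 in CD47 KO, 326 in WT) and *Cd28* (44.1 in CD47 KO, 170 in WT) were past 2-fold lower, with a median of -0.91 over 5 genes (-0.41 as means over probe sets). The chains of the CD3 complex are made together in T cells, and their ratios here ran from -2.34 for *Cd3e* to 0.77 for *Cd3g*. The Y-linked genes *Eif2s3y* (461 in CD47 KO, 189 in WT) and *Kdm5d* (307 in CD47 KO, 162 in WT) were expressed along with *Xist*. *Eif2s3y* had Log2 ratios of 1.29 and, on its other probe set, -0.18.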
